A study of Mus musculus with 10 samples.

Results

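Most Slc25a genes encode solute carriers of the mitochondrial inner membrane. These small proteins exchange nucleotides, phosphate, organic acids, amino acids, cofactors and iron between the cytosol and the matrix. Slc25a17, a peroxisomal carrier, and Slc25a46, an outer membrane protein, are exceptions. Genes with protein-coding annotation and a symbol of the form Slc25a followed by a number were taken, which gave 47 of the 43629 genes in the count files. Other proteins of the same superfamily that carry other names, such as the uncoupling proteins, were kept apart. The level of a carrier's transcript does not measure transport, which was not assayed here.

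The samples were skeletal muscle of male C57BL/6 mice aged 6 weeks that had been on a high-fat diet (HFD) for 2 weeks, with or without IMP2, an RNA-binding protein encoded by Igf2bp2. Total RNA was sequenced from 3 IMP2-null (KO) and 3 wild-type (WT) muscles, and RNA recovered by immunoprecipitation (IP) with a home-made IMP2 antibody from 2 KO and 2 WT muscles. All groups shared sex, background, age and diet, and the labels place the loss of IMP2 in muscle, so other cells of the tissue may still hold the protein. The sources used here give neither the driver of the deletion nor the part of Igf2bp2 removed, no control antibody, and no statement that replicates were separate animals. The p-values therefore cover the variation among these libraries, which may be technical.

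In working muscle, ATP made in the matrix leaves in exchange for ADP through the adenine nucleotide translocases, and phosphate enters through its own carrier. The malate-aspartate shuttle, which uses the oxoglutarate and aspartate/glutamate carriers, moves reducing equivalents of glycolysis into mitochondria, and the acylcarnitine carrier brings in fatty acids for oxidation. Carriers for citrate, coenzyme A, iron and glutathione supply synthesis and cofactor assembly. Several carriers have a muscle form and a form used in other tissues, as with the translocases encoded by Slc25a4 (heart and muscle) and Slc25a5 (dividing cells), and the aspartate/glutamate carriers encoded by Slc25a12 (muscle and brain) and Slc25a13 (liver).

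Reads assigned to genes came to between 9691580 and 14809788 counts in a total RNA library and between 917462 and 4037480 counts in an IP library. Levels are counts scaled to a fixed library total (CPM) with TMM factors, and per-length levels divide CPM by the length in kilobases (kb) of 1 principal transcript per gene. A count of 0 allows 3 counts, which covers counting error only. By library size without TMM factors, that is 0.203 to 0.310 CPM in total RNA and 0.743 to 3.27 CPM in the IP. Igf2bp2 itself had 21, 19 and 21 counts in KO total RNA, against 35, 37 and 48 counts in WT total RNA. In CPM, its KO total RNA levels of 1.88 to 2.52 met the WT range of 2.51 to 3.35, and the difference did not pass (log2 −0.36 ± 0.28 (SE), adjusted p = 0.897, edgeR). In the IP, Igf2bp2 had 9 and 25 counts in KO and 28 and 4 counts in WT. These were 8.65 and 5.19 CPM against 11.8 and 1.56 CPM (log2 −0.02 ± 0.78, adjusted p = 0.995, edgeR). The IP differed from total RNA by 1.47 ± 0.60 in KO and 1.18 ± 0.57 in WT, and neither passed. Fast fibre markers summed to between 89690 and 228928 CPM in total RNA, as in muscle. KO total RNA library 1 held islet transcripts, with 6 markers summed to 2347 CPM there and to 1.15 to 2.23 CPM in the other total RNA libraries. The islet sums of the IP libraries are given below. WT total RNA library 2 held brown fat transcripts, described below with the carriers it touches.

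The promoters of both translocase genes were compared, since their proteins exchange the same nucleotides and their transcript levels, given below, lay far apart. Slc25a4 lies on chromosome 8 at 46206797 to 46211284 (minus strand) and Slc25a5 on the X chromosome at 36795651 to 36798807 (plus strand), both in GRCm38. The windows were the 250 bases before the RefSeq transcript start in GRCm38.p6. The RefSeq and GENCODE starts lie 222 bases apart for Slc25a4, whose window is mostly inside the first exon of the longer GENCODE transcript and is not printed, and 54 bases apart for Slc25a5, whose window lies before both starts. The Slc25a5 window, chrX:36795347-36795596, is given 5′ to 3′ on the gene's strand. Capitals mark matches, on either strand, to the CCAAT box, to the GC box core GGGCGG or to the letters TATAA.
Slc25a5: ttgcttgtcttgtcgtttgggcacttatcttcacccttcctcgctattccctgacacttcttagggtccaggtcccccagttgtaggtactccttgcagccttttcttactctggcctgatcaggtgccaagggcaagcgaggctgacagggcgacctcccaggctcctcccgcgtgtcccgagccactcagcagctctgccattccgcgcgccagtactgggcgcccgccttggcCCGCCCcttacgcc
The Slc25a4 window held CCAAT at 2 places, the nearer one ending 52 bases before the start, and neither GGGCGG nor TATAA. The Slc25a5 window held GGGCGG once on the opposite strand (CCGCCC, 9 to 14 bases before the start), and neither CCAAT nor TATAA. The letters TATAA did occur after the RefSeq start, first at base 6 for Slc25a4 and at base 27 for Slc25a5. Of 46 promoters found for 36 of the 47 genes, 45.7% held CCAAT, 69.6% held GGGCGG and 6.52% held TATAA. Over all 32851 promoters, 33.8% held CCAAT, 32.7% held GGGCGG and 22.8% held TATAA. A match is a description of these letters, and no binding was measured.

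Slc25a4 had the highest per-length level of the family in every group, with 2986 ± 561 CPM per kb in KO total RNA and 2686 ± 431 CPM per kb in WT total RNA (SD, n = 3 each). It alone made up 61.8% to 68.8% of the family's summed CPM in KO total RNA and 60.1% to 64.5% in WT total RNA. Slc25a5 reached 16.6 ± 2.37 CPM per kb in KO and 15.9 ± 2.14 CPM per kb in WT total RNA. Per kb, Slc25a4 was thus 169 to 188 times Slc25a5 in the KO libraries and 156 to 180 times in the WT libraries. The third translocase, Slc25a31, whose known site is the testis, had 0 counts in the KO libraries and at most 1 in a WT library.

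Below Slc25a4 the order in total RNA was set by the carriers of phosphate, oxoglutarate and aspartate. The phosphate carrier Slc25a3 (chromosome 10, 91116574 to 91124059) had 644 ± 13.95 CPM per kb in KO and 605 ± 72.8 in WT total RNA. The oxoglutarate carrier Slc25a11 followed with 222 ± 26.7 CPM per kb in KO and 215 ± 31.5 in WT total RNA. This gene overlaps Rnf167 on the opposite strand, and with the strand setting not given, reads of the pair may not be separated. Slc25a12, the aspartate/glutamate carrier of muscle and brain, had 108 ± 2.13 CPM per kb in KO and 97.9 ± 10.9 in WT total RNA. Its liver counterpart Slc25a13 was near the floor, with 6, 6 and 6 counts in KO and 22, 10 and 13 counts in WT total RNA. By the length of the principal transcript, the ranges of these first 4 genes did not overlap within either genotype. Their order by that length was thus the same in each total RNA library.

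The acylcarnitine carrier Slc25a20 came next, at 58.5 ± 2.59 CPM per kb in KO and 67.9 ± 10.8 in WT total RNA. Next were Slc25a39, which carries glutathione, with 37.5 ± 7.62 and 45.9 ± 24.9 CPM per kb, and Slc25a42, which carries coenzyme A, with 27.6 ± 5.17 and 39.9 ± 15.3 CPM per kb, each in KO and then in WT total RNA. From Slc25a20 to Slc25a42 the ranges of neighbours overlapped in WT, so that order is not fixed beyond the spread of the libraries. The same 8 genes led when the length of all exons was used in place of the principal transcript, but the spacing and order changed. By that length Slc25a3 and Slc25a11 were close, at 187 and 180 CPM per kb in KO total RNA. In WT total RNA they were at 176 and 174 CPM per kb. Slc25a39 then ranked above Slc25a20 in both genotypes, and Slc25a11 above Slc25a3 in the IP of both.

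Most carriers of other substrates were lower still. In KO total RNA, 4 genes reached 100 CPM per kb, 16 lay from 10 to under 100, 16 from 1 to under 10 and 11 below 1. The WT numbers were 3, 19, 15 and 10 in those classes. Of the ATP-Mg/phosphate carriers, which adjust the adenine nucleotide content of the matrix, Slc25a23 had 14.4 ± 1.56 CPM per kb in KO and 18.3 ± 6.07 in WT, and Slc25a25 had 14.1 ± 4.68 in KO and 13.6 ± 3.64 in WT. Slc25a24, the third, was lower at 2.12 ± 0.181 CPM per kb in KO and 2.18 ± 0.520 in WT. For iron, mitoferrin 2 (Slc25a28) had 21.1 ± 1.94 CPM per kb in KO and 20.1 ± 2.35 in WT, and mitoferrin 1 (Slc25a37), the form known from red cell precursors, had 8.34 ± 1.74 in KO and 10.48 ± 1.91 in WT. The pyrimidine carriers Slc25a33 and Slc25a36 had 10.2 ± 0.206 and 4.64 ± 0.423 CPM per kb in KO, against 10.9 ± 1.79 and 5.15 ± 0.546 CPM per kb in WT.

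At the low end, Slc25a54 had no count in any of the 10 libraries. Slc25a21, Slc25a31 and Slc25a41 had at most 2 counts in any total RNA library, and Slc25a2, Slc25a18 and Slc25a43 at most 8. Such levels sit at or near the floor and were not tested between genotypes, and a count of 0 here does not show that a transcript is absent.

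**Figure D1:**
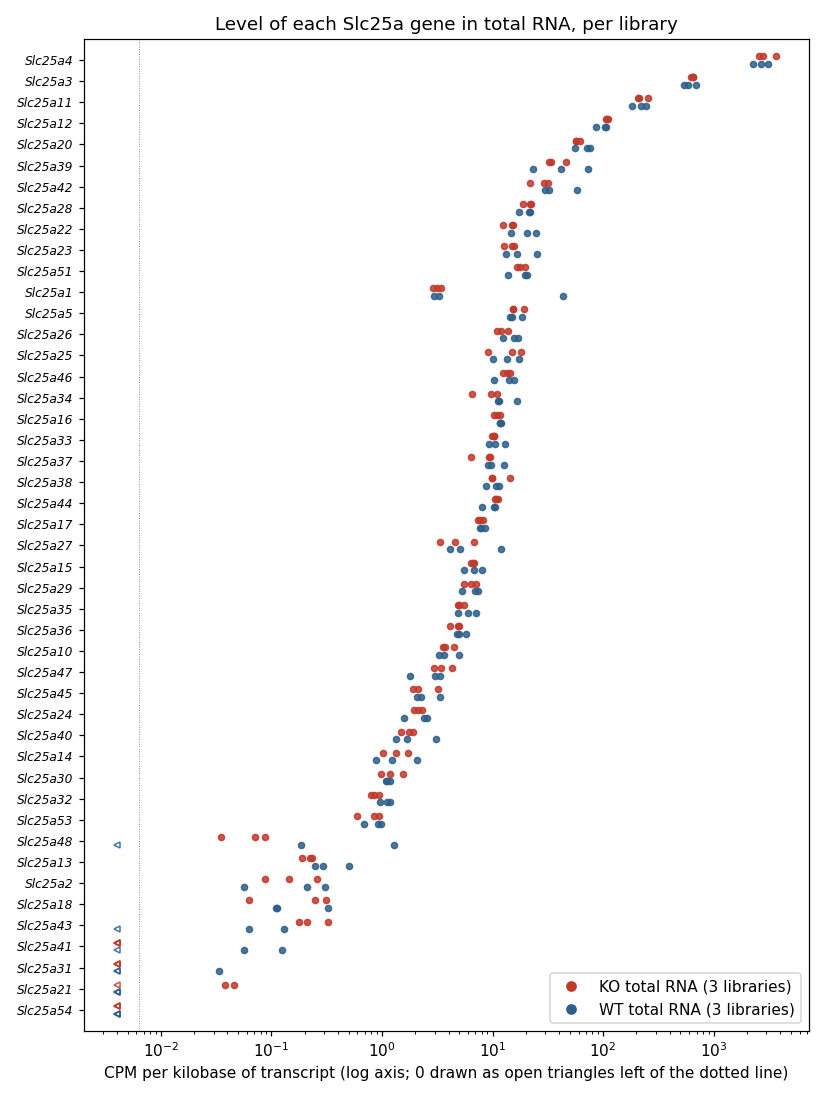
CPM per kb (log axis) of 46 of the 47 Slc25a genes in each of 3 KO (red, upper) and 3 WT (blue, lower) total RNA libraries, ordered by the WT mean; open triangles left of the dotted line are libraries with 0 counts. Slc25a4 lies highest in all 6 libraries, and Slc25a1 has a single WT library far to the right of the other 5.

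KO was first compared with WT in total RNA, which asks whether carrier transcripts depend on IMP2 in this muscle. With edgeR's quasi-likelihood test, 0 of the 38 carriers tested passed an adjusted p of 0.05, and 0 of all 13169 genes did (0%). The other 9 (Slc25a2, Slc25a13, Slc25a18, Slc25a21, Slc25a31, Slc25a41, Slc25a43, Slc25a48 and Slc25a54) did not pass the filter on low counts. At an unadjusted p under 0.05 there were 3 carriers, or 7.89%, beside 4.32% of all genes. DESeq2 called 5 genes and limma-voom 0, none of them carriers, though DESeq2 gave no adjusted p for Slc25a1. KO and WT libraries did not overlap for 3 carriers, 1 higher and 2 lower in KO, beside 9.63% of all genes. The log2 differences had a median of −0.06, beside −0.01 over all genes, and 34 of 38 lay within 0.5 of 0. With library sizes in place of TMM factors, the all-gene median shifted by −0.22.

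The abundant energy carriers differed little between genotypes relative to their error. Slc25a4 had 5321, 4948 and 6976 CPM in KO total RNA, against 6007, 5156 and 4348 CPM in WT total RNA. The groups overlapped (log2 0.15 ± 0.23, adjusted p = 0.921), and the value was −0.071 by library size alone and −0.0038 without KO library 3. Fast fibre markers moved the same way, with 9 of 9 positive, none called, and sums of 167249 to 228928 CPM in KO against 89690 to 154608 CPM in WT total RNA, the lowest in WT library 3. Their part in the Slc25a4 value was not tested. In bulk muscle, fewer cells of a type and less RNA per cell cannot be told apart.

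Slc25a3 had 1012, 1048 and 1053 CPM in KO total RNA, against 1105, 945 and 876 CPM in WT total RNA, and the groups overlapped (log2 0.08 ± 0.17, −0.13 by library size alone). Slc25a12 had 697, 670 and 683 CPM in KO total RNA, against 668, 655 and 542 CPM in WT total RNA. Every KO library lay above every WT library, the nearest pair being 670 and 668 CPM, and the difference did not pass (log2 0.13 ± 0.16, adjusted p = 0.904, −0.076 by library size alone). Slc25a11 differed by 0.04 ± 0.18, or −0.17 by library size alone, and Slc25a5 by 0.06 ± 0.17, or −0.165 by library size alone. No direction is given for these genes.

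The smallest p values belonged to carriers with negative differences, and none of these passed. Slc25a34, a carrier with no assigned substrate here, had 25.7, 17.4 and 29.6 CPM in KO total RNA, against 44.6, 29.9 and 30.8 CPM in WT total RNA. The groups just failed to overlap (log2 −0.54 ± 0.23, adjusted p = 0.897). Slc25a22, a glutamate carrier, had 43.1, 42.2 and 34.8 CPM in KO total RNA, against 57.4, 41.1 and 69.2 CPM in WT total RNA, with overlap at WT library 2 (log2 −0.49 ± 0.20, adjusted p = 0.897). Slc25a42 had 101, 93.8 and 69.4 CPM in KO total RNA, against 103, 95.8 and 184 CPM in WT total RNA. The high WT value came from library 3 alone, and without it the log2 difference of −0.54 ± 0.27 became −0.17.

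On the other side, the positive differences with the smallest p were those of Slc25a47, 0.37 ± 0.28, of Slc25a44, a branched-chain amino acid carrier, 0.16 ± 0.15, and of Slc25a12. None passed the test, and Slc25a44 turned to −0.039 by library size alone. By role, no group had a called member. The 7 carriers of coenzymes, vitamins and methyl donors had a median log2 of −0.30 and ranged from −0.54 to 0.00098. Those of iron, glycine and glutathione ranged from −0.34 to 0.14 over 5 genes, with a median of −0.25.

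**Figure D2:**
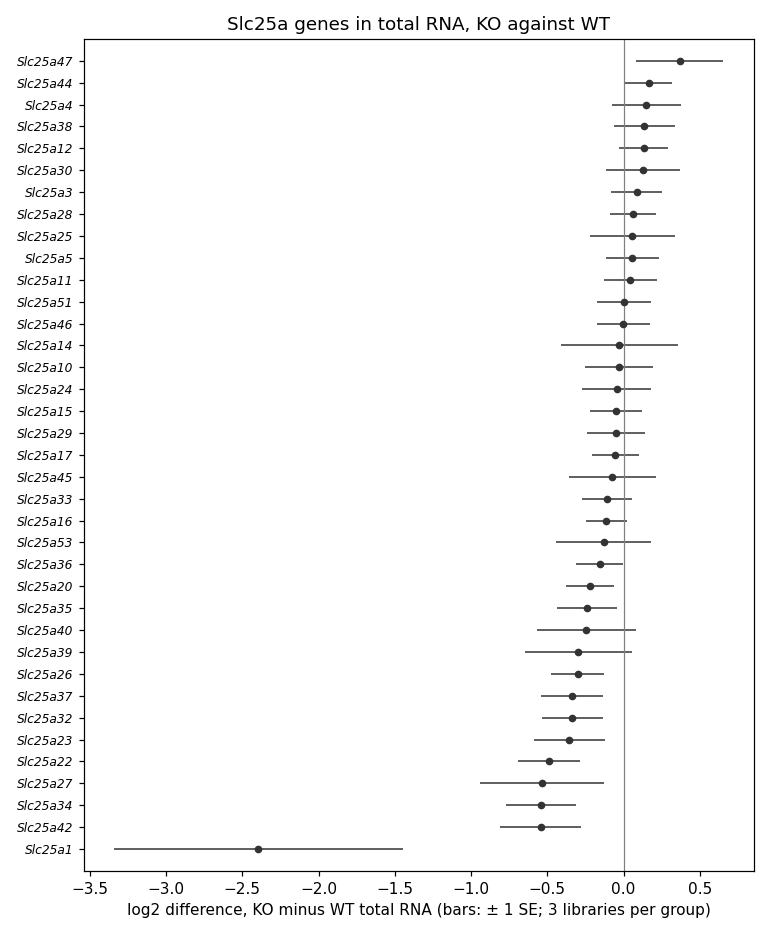
Log2 difference, KO minus WT total RNA, with bars of 1 SE, for 37 of the 38 Slc25a genes tested with 3 libraries per group. Nearly all lie within 0.5 of 0 and none passed the test; Slc25a1 at −2.39 rests on WT library 2.

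Slc25a1, the citrate carrier that exports citrate for fatty acid synthesis (chromosome 16, 17925223 to 17928219), gave the lowest value of the family, log2 −2.39 ± 0.94 (adjusted p = 0.897). It had 40, 53 and 48 counts in KO total RNA, against 69, 932 and 79 counts in WT total RNA. Only WT library 2 was high, at 71.9 CPM beside 4.81 to 5.64 CPM in the other 5 libraries, and without it the difference was 0.0096. With no filter on low counts and all libraries kept, the gene was called lower in KO (adjusted p = 0.0295).

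The same WT library was the highest of the 6 for 8 of the 38 carriers tested, beside 9.35% of all genes. WT library 3 was the highest for 12 carriers, beside 28.7% of all genes, and WT library 1 for 8, beside 13.7%. WT library 2 exceeded every other library by over 2-fold for 1 carrier, Slc25a1, beside 0.691% of all genes. Slc25a48 had 56 counts there and 0 to 9 in the others. Slc25a10, the dicarboxylate carrier, reached 10.1 CPM beside 6.63 to 9.04 CPM, and Slc25a39 reached 122 CPM beside 39.2 to 78.0 CPM. Without WT library 2 the KO minus WT difference was 0.22 in place of −0.30 ± 0.35 for Slc25a39. Slc25a4 was not high in this library, at 5156 CPM within the range of the others.

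Some transcripts of brown fat were high in the same library. Ucp1, the uncoupling protein of brown fat, had 2919 counts in WT library 2 and 1 to 53 in the others, Cidea had 3806 counts beside 16 to 125, and Elovl3 had 66 beside 0 to 3. The other brown adipocyte markers were not highest there, with Cox7a1 at 432 CPM beside 340 to 694 CPM and Ppargc1b at 19.4 CPM beside 13.04 to 19.8 CPM. The 5 brown adipocyte markers summed to 362 to 710 CPM in KO total RNA and 377 to 976 CPM in WT total RNA, with WT library 2 the highest. Outside that library Cox7a1, which muscle also expresses, makes up nearly all of these sums, and 1 of the 5 was at 0 in each of the other libraries except WT library 3. The 7 adipocyte markers summed to 298 to 498 CPM in KO and 396 to 817 CPM in WT total RNA, again highest in WT library 2, with none at 0. The part of these transcripts in the carrier values was not tested, and the Slc25a1 value without the library is the 0.0096 given above.

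**Figure D3:**
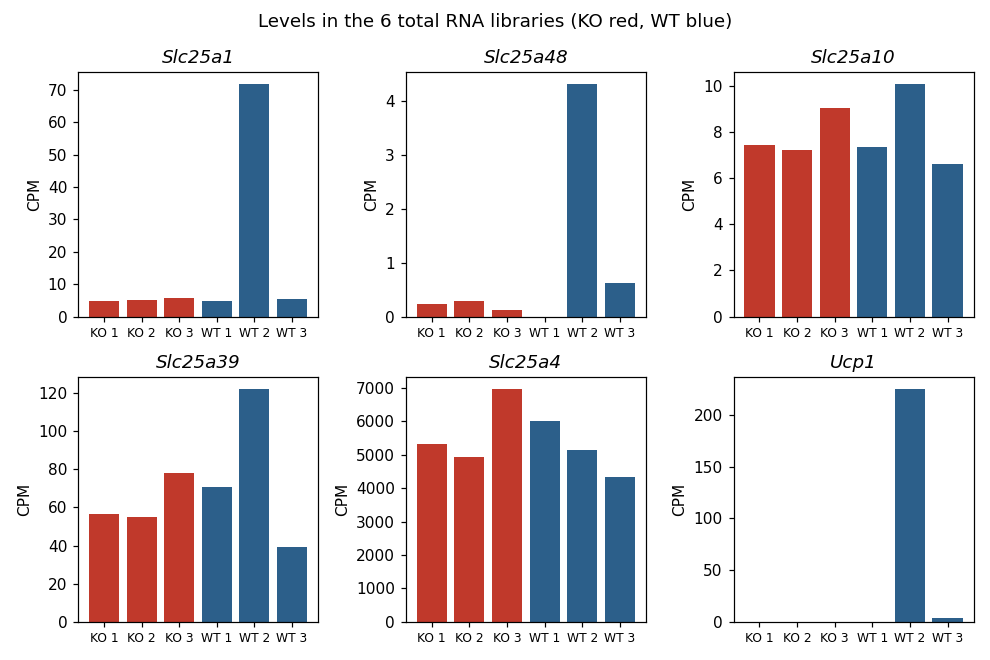
CPM of 5 carriers and of Ucp1 in the 6 total RNA libraries, KO in red and WT in blue; each panel has its own axis from 0. WT library 2 is highest for Slc25a1, Slc25a48, Slc25a10, Slc25a39 and Ucp1, and not for Slc25a4.

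The IP was compared with total RNA of the same genotype in a fit of all 10 libraries, to see which carrier transcripts the antibody pulled down above or below their share of total RNA. KO muscle was treated alike, so its IP shows what was recovered from tissue labelled as lacking the protein. In KO, 5 of 40 carriers tested were higher in the IP, beside 17.7% of all genes, and 6 were lower, beside 18.8%. In WT, 6 of 40 were higher, beside 17.6%, and 7 were lower, beside 19.4%. Libraries of IP and total RNA did not overlap for 23 carriers in KO (14 higher and 9 lower), beside 61.3% of all genes, and for 17 in WT (7 higher and 10 lower), beside 59.9%. Called in either direction were 27.5% of carriers in KO, beside 36.5% of genes, and 32.5% in WT, beside 37% of genes. The sign was the same in both genotypes for 28 of 40 carriers (70%), beside 77.3% of all genes.

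Part of the calls were shared between genotypes. Higher in both genotypes were Slc25a15, Slc25a28, Slc25a29 and Slc25a39, which is 80% of those called in KO and 66.7% of those called in WT, beside 60.5% and 60.9% over all genes. Lower in both were Slc25a3, Slc25a16, Slc25a30, Slc25a32 and Slc25a42, or 83.3% of the KO calls and 71.4% of the WT calls, beside 71.3% and 68.9% over all genes. Under each of the 17 alternative settings, Slc25a3, Slc25a16, Slc25a28 and Slc25a39 remained called in both genotypes. The basic amino acid carriers Slc25a15 and Slc25a29 and the outer membrane protein Slc25a46 were called in KO in 5, 4 and 5 of these settings, so their KO calls depend on the processing. The same holds for Slc25a42 in KO, called in 11 settings, and for Slc25a32, called in 14 settings in KO and 6 in WT. It also holds for Slc25a17, called lower in WT in 11 settings. With replicate number as a block, Slc25a15, Slc25a29 and Slc25a46 were not called in KO (adjusted p = 0.0906, 0.0867 and 0.116), nor Slc25a15 and Slc25a32 in WT (adjusted p = 0.0530 and 0.0549). The KO differences of Slc25a15, Slc25a29 and Slc25a46 were 0.66 ± 0.23, 0.71 ± 0.25 and 0.62 ± 0.22, and the WT differences 0.72 ± 0.22, 1.00 ± 0.24 and 0.25 ± 0.22, where the last did not pass. Slc25a47 was called higher in WT (1.31 ± 0.41, adjusted p = 0.0228), and its KO value was 0.79 ± 0.42 (adjusted p = 0.150). Its WT call held in 13 of the 17 alternative settings.

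Slc25a39, the glutathione carrier, had the largest positive difference among those called in both. It had 204 and 202 CPM in the KO IP, against 56.5, 55.1 and 78.0 CPM in KO total RNA (log2 1.68 ± 0.34, adjusted p = 0.00171). In WT it had 255 and 236 CPM in the IP, against 70.6, 122 and 39.2 CPM in total RNA (log2 1.67 ± 0.34, adjusted p = 0.00162). All IP libraries lay above all total RNA libraries, and the gene ranked 4 of the family per kb in the IP. Slc25a28, mitoferrin 2, had 80.7 and 73.9 CPM in the KO IP, against 33.6, 29.0 and 34.5 CPM in KO total RNA (log2 1.25 ± 0.19, adjusted p = 0.000255). It had 87.1 and 71.7 CPM in the WT IP, against 33.2, 32.8 and 26.7 CPM in WT total RNA (log2 1.36 ± 0.19, adjusted p = 0.000115). Mitoferrin 1, Slc25a37, did not pass in either genotype, at 0.32 ± 0.23 in KO and 0.09 ± 0.23 in WT.

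Some markers of other cells were also higher in the IP, and others were not. The 5 erythroid markers summed to 483 and 778 CPM in the KO IP, against 47.7 to 121 CPM in KO total RNA. In WT the sums were 156 and 310 CPM for the IP, against 25.1 to 159 CPM in WT total RNA. Of them, 4 were called higher and 1 lower in KO, and 1 higher in WT, and Alas2 was at 0 in KO IP library 1. The 4 fibroblast markers summed to 10886 and 9571 CPM in the KO IP, against 3617 to 6318 CPM in KO total RNA. In WT they came to 5868 and 4366 CPM for the IP, against 2649 to 4307 CPM in WT total RNA, with none at 0. Of the 4 endothelial markers, 2 were called higher in KO, and 1 higher and 1 lower in WT. The 6 islet markers summed to 360 and 139 CPM in the KO IP, against 2347, 2.08 and 2.23 CPM in KO total RNA. In WT they came to 41.6 and 335 CPM for the IP, against 1.15 to 1.85 CPM in WT total RNA, with 2 called higher in WT and none in KO. None of 4 macrophage markers was called in either genotype. Of 7 adipocyte markers, 1 was called higher and 1 lower in KO, and none in WT. Of 8 slow fibre markers, none was called in KO, and 1 was higher in WT. Of 9 fast fibre markers, 6 were called lower and none higher in KO, and 3 lower and 1 higher in WT. Their part in the carrier differences was not tested.

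The largest falls in the IP among carriers with over 1 count per IP library were those of Slc25a16, which is linked to coenzyme A supply (chromosome 10, 62920633 to 62946498). It had 5 and 7 counts in the KO IP, against 307, 351 and 274 counts in KO total RNA, or 4.80 and 1.45 CPM against 32.2 to 36.9 CPM (log2 −3.97 ± 0.37, adjusted p = 1.39e-05). In WT it had 9 and 12 counts in the IP, against 514, 491 and 531 counts in total RNA, or 3.79 and 4.67 CPM against 36.8 to 37.9 CPM (log2 −3.13 ± 0.32, adjusted p = 1.51e-05). All 4 IP libraries lay far below all 6 total RNA libraries, whose own range was narrow. Gm16128 and Gm25862 overlap the gene, 1 of them on the opposite strand, so its reads may not be fully separated.

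Slc25a30, an uncoupling protein-like carrier, had 1 and 0 counts in the KO IP, against 29, 56 and 36 counts in KO total RNA, and 1 and 1 counts in the WT IP, against 59, 52 and 56 counts in WT total RNA. On pooled counts and library size alone, the IP was 0.0519 times total RNA in KO (95% exact interval 0.00130 to 0.295) and 0.104 times in WT (0.0125 to 0.383). These intervals cover counting error only and not the spread between libraries. Slc25a32, the folate carrier, differed by −1.48 ± 0.44 in KO and −1.18 ± 0.39 in WT, and Slc25a42 by −0.91 ± 0.29 in KO and −1.27 ± 0.28 in WT. Of the 7 carriers of coenzymes, vitamins and methyl donors, 3 were called lower in KO and 4 in WT, and none higher. Over all genes, 18.8% were called lower in KO and 19.4% in WT.

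The 2 most abundant carriers were also lower in the IP. Slc25a3 had 507 and 357 CPM in the KO IP, against 1012 to 1053 CPM in KO total RNA (log2 −1.27 ± 0.23, adjusted p = 0.000729), and 458 and 535 CPM in the WT IP, against 876 to 1105 CPM in WT total RNA (log2 −0.97 ± 0.22, adjusted p = 0.00382). Slc25a4 had 2818 and 2200 CPM in the KO IP, against 4948 to 6976 CPM in KO total RNA, and was called (log2 −1.20 ± 0.27, adjusted p = 0.00379). In WT it had 2872 and 3718 CPM in the IP, against 4348 to 6007 CPM in total RNA, which missed the threshold (log2 −0.65 ± 0.27, adjusted p = 0.0694). The KO call was lost without KO IP library 2 (adjusted p = 0.0654). The WT value passed by library size alone, with no filter, by DESeq2, by limma-voom and without WT total RNA library 3 (adjusted p of 0.0232 to 0.0420). The difference between these contrasts did not pass (−0.55 ± 0.37, adjusted p = 0.562). Slc25a5 did not follow, at −0.09 ± 0.24 in KO and 0.19 ± 0.23 in WT, and the per-kb ratio of Slc25a4 to Slc25a5 was 80.4 and 82.1 in the KO IP and 84.6 and 104 in the WT IP. Slc25a4 made up 47.2% and 51.6% of the family's CPM in the KO IP and 53.1% and 55.8% in the WT IP.

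The remaining carriers of the energy pathways were nearer to their total RNA levels. Slc25a11 differed by 0.20 ± 0.20 in KO and 0.41 ± 0.20 in WT, Slc25a12 by −0.47 ± 0.22 in KO and −0.30 ± 0.22 in WT, and Slc25a20 by 0.12 ± 0.20 in KO and −0.43 ± 0.20 in WT, and none of these passed. Of the ATP-Mg/phosphate carriers, 3 were tested and ranged from −0.41 to 0.05 in KO and from −0.25 to 0.26 in WT. Summed over the family, CPM came to 5065 ± 567 in the KO IP (SD, n = 2), against 8836 ± 1140 in KO total RNA (n = 3), and to 6031 ± 884 in the WT IP (n = 2), against 8298 ± 1036 in WT total RNA (n = 3). Without Slc25a3, Slc25a4, Slc25a11 and Slc25a12 the sums were 1193 ± 26.9 CPM in the KO IP against 986 ± 7.29 CPM in KO total RNA, and 1246 ± 48.1 CPM in the WT IP against 1162 ± 56.4 CPM in WT total RNA. The WT sums overlapped, at 1212 to 1280 CPM in the IP and 1108 to 1220 CPM in total RNA. Within these sums Slc25a39 alone held 203 CPM in the KO IP against 63.2 CPM in KO total RNA. In WT it held 245 CPM against 77.4 CPM, a larger rise than that of the whole WT sum.

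Transcript features were set beside the IP differences as a description across genes, which are not independent replicates. Over the 40 carriers, the Spearman coefficient between 3′ UTR length and the IP minus total RNA difference was −0.28 in KO and −0.40 in WT, beside −0.10 and −0.09 over 13109 genes. For the GC content of the transcript it was 0.34 in KO and 0.41 in WT, beside 0.11 and 0.20 over those genes. For transcript length it was −0.28 in KO and −0.37 in WT, beside −0.22 and −0.28. For the length of the coding sequence it was 0.04 in KO and 0.08 in WT, beside −0.20 and −0.31. The carriers called higher in KO had a median GC content of 59.7% (40.7% to 60.9%), and those called lower 46.9% (41.2% to 56.2%). In WT these values were 58.9% (47.7% to 60.9%) and 45.4% (41.2% to 57.8%). The ranges overlapped in both genotypes. The same libraries underlie all of these values, and at 40 genes the coefficients are weak.

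**Figure D4:**
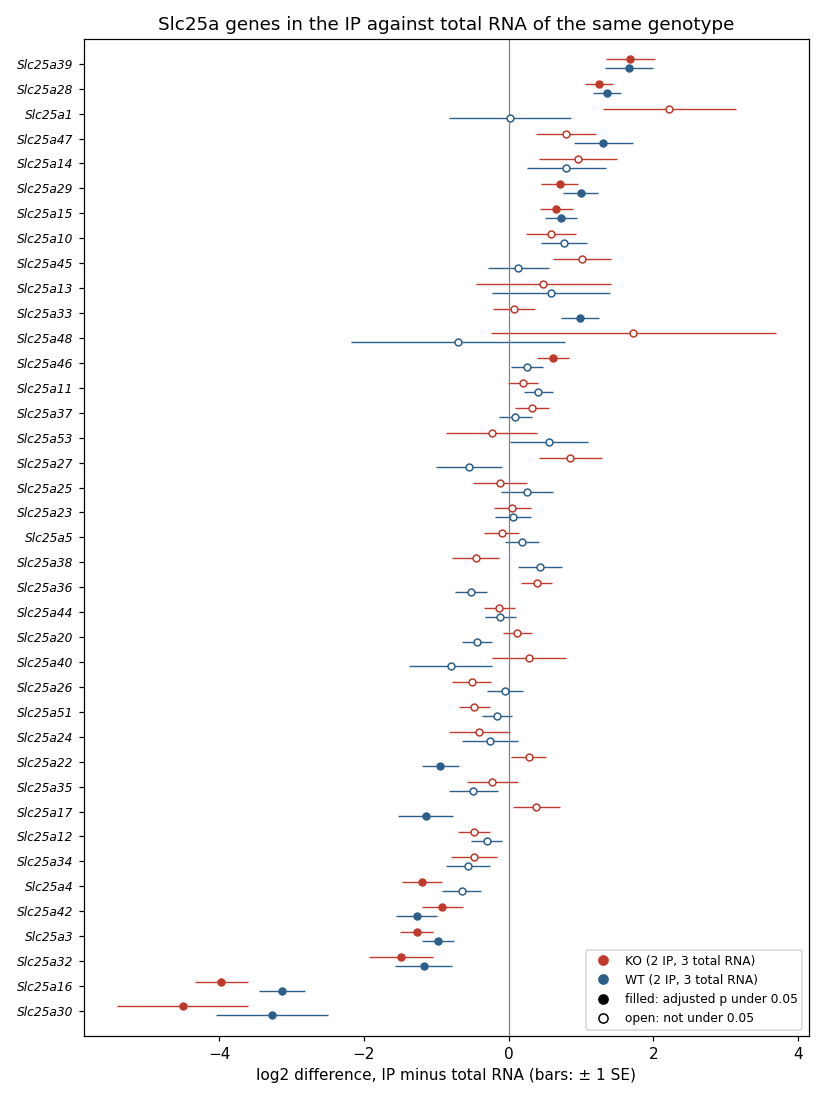
Log2 difference, IP minus total RNA, with bars of 1 SE, for 39 of the 40 Slc25a genes tested in KO (red, upper) and WT (blue, lower); filled points passed an adjusted p of 0.05. Slc25a39 and Slc25a28 lie to the right and Slc25a16, Slc25a30, Slc25a32, Slc25a3 and Slc25a42 to the left in both genotypes.

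KO and WT were next compared within the IP, where a transcript held by IMP2 would be lower in KO if the antibody recovered it through the protein. None of 34 carriers tested passed, and 0 of 10730 genes did (0%), with 2 libraries per group and at most 4037480 counts. The 13 carriers not tested were the 9 named above and Slc25a30, Slc25a32, Slc25a40 and Slc25a53. At an unadjusted p under 0.05 there were 5 carriers, or 14.7%, beside 10.5% of all genes, and the libraries did not overlap for 17 carriers, 7 higher and 10 lower in KO, beside 41.1% of all genes. DESeq2 called 57 genes and limma-voom 3, none of them carriers, though DESeq2 gave no adjusted p for Slc25a17. The carriers' median log2 was −0.16, beside 0.01 over all genes, but −0.0055 without KO IP library 2 and −0.014 by library size alone.

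The carrier with the smallest p had a negative difference. Slc25a33, which imports pyrimidine nucleotides, had 11.5 and 25.3 CPM in the KO IP, against 33.2 and 48.3 CPM in the WT IP (log2 −1.01 ± 0.36, adjusted p = 0.318). With a library left out, the value ranged from −1.80 to −0.69. Its total RNA levels were close, at 18.7 to 19.5 CPM in KO and 17.7 to 24.3 CPM in WT. In WT it was called higher in the IP than in total RNA (0.99 ± 0.27, adjusted p = 0.0102; 0.61 and adjusted p = 0.199 without WT IP library 2), and in KO the value was 0.08 ± 0.29 (adjusted p = 0.860). The difference between the genotypes in that contrast was −0.91 ± 0.39 and did not pass (adjusted p = 0.394). The related Slc25a36 went the other way, with 25.9 and 35.7 CPM in the KO IP against 18.1 and 19.5 CPM in the WT IP (log2 0.76 ± 0.33, adjusted p = 0.445).

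Slc25a17, a peroxisomal carrier of coenzyme A and related cofactors, rested on 1 library. It had 7 and 115 counts in the KO IP, against 15 and 16 counts in the WT IP, or 6.73 and 23.9 CPM against 6.31 and 6.23 CPM (log2 1.42 ± 0.56, adjusted p = 0.377). Without KO IP library 2 the difference was 0.12, and without KO IP library 1 it was 1.92 and passed (adjusted p = 0.0481), with the single KO library left assumed to vary like the others. Slc25a22 had 53.8 and 44.6 CPM in the KO IP, against 33.6 and 24.5 CPM in the WT IP (log2 0.75 ± 0.29, adjusted p = 0.382). Slc25a27, an uncoupling protein-like carrier, had 24.02 and 26.97 CPM in the KO IP, against 17.7 and 10.5 CPM in the WT IP (log2 0.88 ± 0.38, adjusted p = 0.445). For both, the KO values lay above the WT values without passing the test.

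The next negative values, also without passing, were those of Slc25a26, the carrier of S-adenosylmethionine, at −0.75 ± 0.37 (adjusted p = 0.497), and Slc25a38, a glycine carrier, at −0.76 ± 0.41 (adjusted p = 0.527). Slc25a4 differed by −0.38 ± 0.24 (adjusted p = 0.608), beside fast fibre markers that were negative in 8 of 9 cases, none called, and summed to 81339 and 64409 CPM in the KO IP and 80796 and 103140 CPM in the WT IP. Their part was not tested. With library sizes in place of TMM factors, the all-gene median shifted by 0.14.

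Whether the IP changed relative to total RNA between genotypes was tested as an interaction over all 10 libraries. None of 40 carriers passed, and 1 of 14399 genes did (0.00694%). At an unadjusted p under 0.05 there were 5 carriers, or 12.5%, beside 11.8% of all genes. These were Slc25a22 (1.22 ± 0.35, adjusted p = 0.342), Slc25a17 (1.53 ± 0.50, adjusted p = 0.342), Slc25a36 (0.91 ± 0.31, adjusted p = 0.342), Slc25a33, given above, and Slc25a27 (1.40 ± 0.63, adjusted p = 0.405), all KO minus WT. The next negative values were −0.89 ± 0.44 for Slc25a38 and −0.84 ± 0.53 for Slc25a16. In IP against total RNA, Slc25a22 had 0.28 ± 0.25 in KO and a called −0.94 ± 0.25 in WT, and Slc25a17 had 0.38 ± 0.33 in KO and a called −1.15 ± 0.38 in WT, but the interaction did not show that the genotypes differ. Of the 17 alternative settings, the WT call held in 16 for Slc25a22 and in 11 for Slc25a17. The all-gene median shifted by 0.37 here with library sizes in place of TMM factors, and by 0.43 for the KO IP against KO total RNA.

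**Figure D5:**
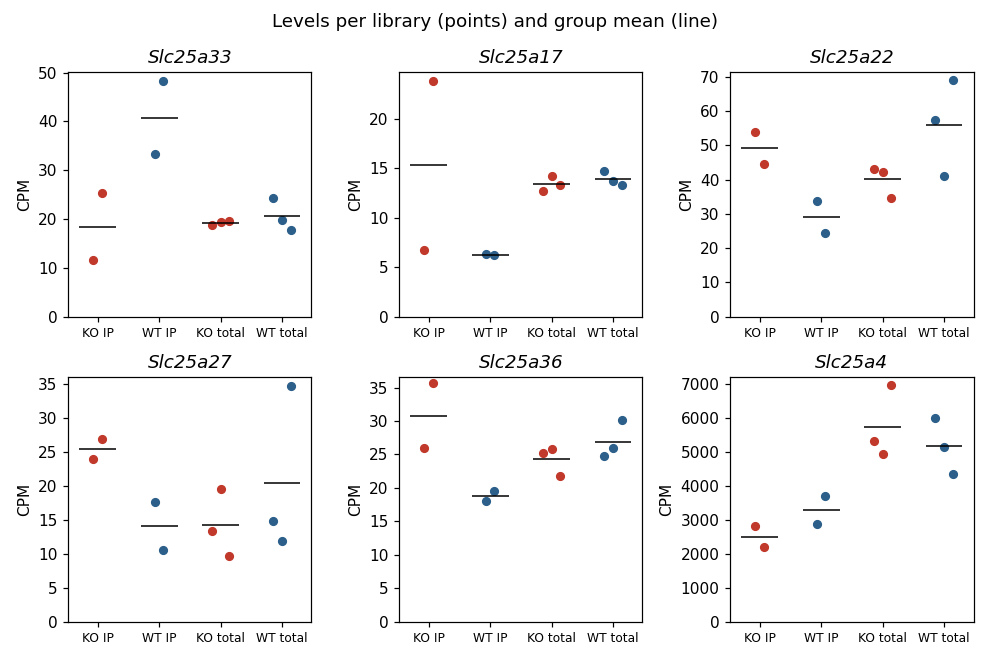
CPM per library (points) and group means (lines) of 6 carriers in the KO IP, WT IP, KO total RNA and WT total RNA; axes start at 0 and differ between panels. Slc25a33 is lower in both KO IP libraries than in both WT IP libraries, and Slc25a17 is high in a single KO IP library.

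Slc25a1 was higher in every IP library than in every KO total RNA library, with 23.1 and 25.3 CPM in the KO IP, against 4.81, 5.24 and 5.64 CPM in KO total RNA (log2 2.22 ± 0.92, adjusted p = 0.0714). The WT IP held 17.2 and 38.2 CPM, against 4.94, 71.9 and 5.51 CPM in WT total RNA (log2 0.02 ± 0.84, adjusted p = 0.986). The KO value passed by library size alone, with no filter, and with WT total RNA library 1, 2 or 3 left out. Without both KO total RNA library 1 and WT total RNA library 2, the KO and WT values passed. The WT value also passed without WT total RNA library 2 alone. Brown fat transcripts were also present in the IP, with Ucp1 at 42.3 and 20.1 CPM in the KO IP, against 0.0989 to 0.235 CPM in KO total RNA, and at 7.15 and 68.6 CPM in the WT IP, against 0.143, 225 and 3.70 CPM in WT total RNA. Of the WT IP libraries the one with more Ucp1 had more Slc25a1, and of the KO IP libraries the one with less Ucp1 did. The 5 brown adipocyte markers came to sums of 594 and 484 CPM for the KO IP, with 644 and 929 CPM for the WT IP, with 1 at 0 in WT IP library 2 and none in the other 3. These sums lay within those of total RNA, 362 to 710 CPM in KO and 377 to 976 CPM in WT. Of the 5 markers in the IP against total RNA, 4 were positive in KO, with 2 called higher and 0 lower. In WT 4 were negative, with 1 called higher and 0 lower. Their part was not tested.

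Genes that work with the carriers were given from lists of pathway members. No gene of the 7 lists passed in total RNA, in the IP between genotypes, or in the interaction. Of 16 ATP synthase genes, 14 were positive in KO minus WT total RNA with a median of 0.18, beside 48.0% of all genes positive. By library size alone 5 were positive, with a median of −0.034. In the IP against total RNA, 2 were called higher and 6 lower in KO, and 2 higher and 4 lower in WT. For this and the lists below, the all-gene shares were 17.7% higher and 18.8% lower in KO. In WT they were 17.6% higher and 19.4% lower. Atp5b, the catalytic beta subunit, differed by −1.58 ± 0.23 in KO and −1.28 ± 0.23 in WT, and Atp5e, the small epsilon subunit, by 1.34 ± 0.34 in KO and 1.96 ± 0.34 in WT.

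The enzymes of the malate-aspartate shuttle were lower in the IP, with 3 of 4 called in each genotype and none higher. Mdh1, the cytosolic malate dehydrogenase, differed by −2.25 ± 0.28 in KO and −1.85 ± 0.27 in WT, and Mdh2, its mitochondrial form, by −1.69 ± 0.24 and −1.09 ± 0.23. Of 4 carnitine shuttle enzymes, 2 were lower in each genotype, among them Cpt2, the carnitine palmitoyltransferase of the inner membrane, at −0.61 ± 0.20 in KO and −1.03 ± 0.20 in WT. The carriers of these pathways, Slc25a11, Slc25a12 and Slc25a20, were not called with TMM factors in edgeR and all libraries. By library size alone Slc25a11 was called higher in KO (adjusted p = 0.00843) and WT (adjusted p = 0.0389), and Slc25a20 higher in KO (adjusted p = 0.0262). Slc25a12 was called lower in KO by DESeq2 (adjusted p = 0.0418) and without WT IP library 2 (adjusted p = 0.0383), and Slc25a20 lower in WT without WT total RNA library 3 (adjusted p = 0.0379).

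Among 11 genes of the pyruvate carrier, the outer membrane pores and the calcium uniporter, 3 were higher and 4 lower in KO, and 3 higher and 2 lower in WT. Mpc1, a subunit of the pyruvate carrier, differed by −4.46 ± 0.40 in KO and −3.56 ± 0.35 in WT, and its partner Mpc2 by 0.09 ± 0.24 and 0.53 ± 0.24, which did not pass. Of the 10 genes of the TIM22 route, which inserts the carriers into the inner membrane, 3 were higher and 3 lower in KO, and 2 higher and 0 lower in WT. The chaperone gene Timm13 differed by 1.33 ± 0.36 in KO and 1.49 ± 0.36 in WT. Of 8 creatine and adenylate kinases, 7 were tested, with 0 higher and 2 lower in KO, and 2 higher and 2 lower in WT. Mitochondrial Ckmt2 differed by −1.15 ± 0.23 in KO and −1.37 ± 0.23 in WT.

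The 5 superfamily members with other names had 3 called higher in the KO IP and none lower, and 2 higher and 1 lower in the WT IP. Ucp2, an uncoupling protein of many tissues, differed by 1.82 ± 0.38 in KO and 2.04 ± 0.37 in WT. Mtch1, a carrier homologue of the outer membrane, differed by 1.02 ± 0.26 in KO and 1.23 ± 0.26 in WT. Ucp3, the uncoupling protein of skeletal muscle, differed by −0.07 ± 0.22 in KO and was called lower in WT (−0.68 ± 0.23, adjusted p = 0.0304).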

How the data were processed

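The deposited files hold unscaled read counts per Ensembl gene, 1 file per library, made by the authors with STAR and HTSeq on mm10 (GRCm38), per the submitters' processing notes. Versions, annotation and strand setting are not given in the sources used here. The 5 lines for reads given to no gene, 41.2% to 58.7% of reads with multi-mapped reads at 26.1% to 43.3%, were left out of library sizes. Symbols and transcripts came from GENCODE M21 (42462 of 43629 genes matched), and promoters from RefSeq.

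Genes passing filterByExpr were tested after TMM scaling by quasi-likelihood in edgeR 4.0.16 (R 4.3.3), with Benjamini-Hochberg adjustment over all genes at 0.05. The SE of a log2 difference was derived from that test, as its absolute value divided by the square root of the F statistic. KO and WT were compared in the 6 total RNA and in the 4 IP libraries, and a fit of all 10 gave IP against total RNA and the interaction. Alternatives were RLE factors, library size alone, no filter, DESeq2 1.42.0, limma-voom 3.58.1, a replicate block, each library left out, and both libraries with islet or brown fat transcripts left out. Exon union length was added after seeing the data. The fit was tested on simulated data.

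Members, gene lists and roles were chosen with earlier results of these data known. Named carriers were the 8 with the highest per-length level in WT total RNA, every called member, in each comparison the 3 with the smallest p per direction, and all members of the ADP/ATP, phosphate, ATP-Mg, aspartate, oxoglutarate, acylcarnitine, iron and pyrimidine roles. Of each pathway list, up to 3 genes with the smallest p were named, and Mpc2, outside this rule, was chosen after its values were seen. The counts over the family include 1 carrier whose own values are not reported here.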

Additional observations from a re-analysis of the deposited data

How the results depend on the processing

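Across the alternatives, most values kept their direction and their side of the threshold. In total RNA, no filter called 64 genes and 1 carrier lower (Slc25a1), and DESeq2 called 5 genes. In the IP between genotypes, the genes called were 1 by library size alone, 103 with no filter, 57 by DESeq2, 3 by limma-voom, 28 with the replicate block and 13 to 146 with a library left out, where 0 to 1 carriers were higher. Carriers higher in the KO IP than in KO total RNA numbered 2 by RLE factors, 13 by library size alone, 2 by DESeq2, 3 by limma-voom, 2 with the replicate block, 3 without both libraries with islet or brown fat transcripts, and 2 to 8 with a library left out. With a library left out, 2 to 7 were lower in the KO IP, and 3 to 7 higher and 4 to 9 lower in the WT IP, while 2148 to 5706 genes were called in the KO contrast. For the interaction, the genes called were 0 by library size alone, limma-voom, the replicate block and without both libraries, 17 by DESeq2, 263 with no filter (1 carrier higher, Slc25a1), and 0 to 1 with a library left out. Summed carrier CPM by library size alone was 7599 in KO total RNA and 5884 in the KO IP. Same-numbered KO and WT libraries did not deviate together (correlations of 0.10, −0.14 and −0.33 in total RNA and −0.05 in the IP). Same-numbered IP and total RNA libraries had correlations of 0.14 and 0.17 in KO and 0.12 and 0.11 in WT. With 2 pairs per genotype the numbers were not taken as pairs, and the calls that the replicate block ended are given with the results.

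Signs that turned by more than 1 SE or with a call are listed here, and 18 more carrier values turned by less with a library left out, among them Slc25a5, Slc25a11, Slc25a28 and Slc25a33 in total RNA. By library size alone, total RNA gave −0.13 for Slc25a3, −0.165 for Slc25a5, −0.17 for Slc25a11, −0.076 for Slc25a12, −0.15 for Slc25a28 and −0.039 for Slc25a44. The KO IP against KO total RNA gave 0.35 for Slc25a5, 0.058 for Slc25a24 and 0.32 for Slc25a25, and the interaction 0.062 for Slc25a3, 0.10 for Slc25a5, 0.15 for Slc25a11, 0.19 for Slc25a12, 0.40 for Slc25a23 and 0.25 for Slc25a28. Without both libraries, Slc25a1 was at 0.057 and Slc25a39 at 0.28 in total RNA, and Slc25a39 at −0.55 in the interaction. With a library left out, total RNA ranged from −2.89 to 0.0096 for Slc25a1 and from −0.61 to 0.22 for Slc25a39. The IP between genotypes ranged from −0.48 to 0.049 for Slc25a3, −0.28 to 0.27 for Slc25a12, −0.75 to 0.63 for Slc25a24 and −1.02 to 0.25 for Slc25a25. The KO IP ranged from −5.50 to 0.87 for Slc25a13, −0.97 to 0.39 for Slc25a24 and −0.75 to 0.39 for Slc25a33, and the WT IP from −1.46 to 1.35 for Slc25a13 and −0.40 to 0.65 for Slc25a25. The interaction ranged from −6.07 to 1.94 for Slc25a13, −1.42 to 0.28 for Slc25a16, −0.70 to 0.65 for Slc25a24, −1.10 to 0.16 for Slc25a25 and −0.48 to 0.34 for Slc25a39. The cause of these turns was not tested. The IP libraries hold 917462 to 4037480 counts, which limits what 2 per group can show.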
